A study of Mus musculus with 24 samples.

Results

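Genes of neutrophils and their granules, 10 in number, were followed across sorted cells of mouse hindlimb muscle. They were taken by symbol from the gene count table, and all 10 of 10 symbols were found among its 52997. The mice were C57BL/6 and 8 weeks old, and muscle was taken either uninjured or on day 1 after cardiotoxin, a component of cobra venom that kills muscle fibers. In each condition 4 populations were sorted by surface proteins: CD45+ cells, which are hematopoietic; CD31+ cells, which are endothelial; mesenchymal stromal cells (MSC; CD45-CD31-Sca1+PDGFRa+); and muscle stem cells, or satellite cells (MuSC; CD45-CD31-Sca1-Vcam1+). That gave 8 groups of 3 libraries, 24 in all, each from about 1000 cells sorted in 2 rounds. The submitters describe the 3 libraries as biological replicates. Whether equal replicate numbers mean a shared mouse is not stated, and p-values cover only the spread among the libraries at hand. The CD45 gate keeps all leukocytes together, and no gate for neutrophils was used.

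Neutrophils are short-lived phagocytes that leave the blood for damaged tissue early, and they carry their antimicrobial proteins in preformed granules. Granules are filled in the order in which they are made in the bone marrow. Azurophil granules come first, in promyelocytes, and hold neutrophil elastase (Elane) and myeloperoxidase (Mpo). Specific granules follow, in myelocytes, and hold the cathelicidin precursor (Camp), lactoferrin (Ltf), neutrophilic granule protein (Ngp) and lipocalin 2 (Lcn2), which binds bacterial siderophores. Mature cells largely stop transcribing granule genes but keep the mRNA of S100a8 and S100a9, the subunits of calprotectin, an abundant cytosolic protein that binds zinc and calcium. They also express Csf3r, the receptor for the growth factor G-CSF, and Retnlg, a secreted resistin-like protein. Lcn2 is known as well as an acute-phase gene that other cells switch on during inflammation.

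On GRCm38, with GENCODE vM21 gene models, S100a8 (chr3:90668978-90670035, + strand) and S100a9 (chr3:90692632-90695721, - strand) lie close together on 1 chromosome. Camp (chr9:109847379-109849617, - strand), Ngp (chr9:110419747-110423012, + strand) and Ltf (chr9:111019271-111042767, + strand) share another. Retnlg lies at chr16:48872621-48874496 (+ strand), Csf3r at chr4:126024550-126044440 (+ strand), Elane at chr10:79886247-79888215 (+ strand) and Lcn2 at chr2:32384633-32388252 (- strand). Mpo, at chr11:87793581-87804413 (+ strand), overlaps the antisense gene Gm11505, and the libraries do not mark strand, so reads of this pair cannot be told apart.

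The transcription factors C/EBP and PU.1 are known as regulators of granule genes, so the 250 bases before each gene's RefSeq start (GRCm38.p6) were searched for short forms of their motifs on both strands. The C/EBP form TTGCNNAA was found in 5 of the 10 members and in 9.56% of 32851 promoters. The PU.1 form GAGGAAGT was found in 3 of the 10 (S100a8, Elane and Mpo) and in 2.44% of promoters. An NF-kB motif was found in Csf3r alone among the members, against 7.25% of promoters, and TATAAA on the gene's strand in S100a8 alone, against 7.59%. Windows of 30 bases are shown for 6 members whose values the results turn on, written 5′ to 3′ on the gene's strand with the matched letters in capitals. In S100a8 the capitals mark the PU.1 form, read on the opposite strand, and in the others the C/EBP form on either strand.
S100a8, chr3:90668888-90668917, + strand: ccaacactcccACTTCCTCagactcagaaa
S100a9, chr3:90695939-90695968, - strand: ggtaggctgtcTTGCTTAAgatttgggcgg
Retnlg, chr16:48872358-48872387, + strand: agctTTCTGCAAggcattccaggcacctcc
Ltf, chr9:111019206-111019235, + strand: aggcaggcctaTTGGGCAAtagggtggggc
Ngp, chr9:110419659-110419688, + strand: gtcctggtttaTTGCCCAAacctccttgcc
Ngp, chr9:110419778-110419807, + strand: tttatgtcaccggcagttcTTGGGCAAggc
Lcn2, chr2:32387937-32387966, - strand: agcccttcctgTTGCTCAAccttgcacagt
The matched letters began 172 bases before the RefSeq start in S100a8, 236 in S100a9, 246 in Retnlg, 75 in Ltf, 216 in Lcn2, and 138 and 11 in Ngp. RefSeq and GENCODE starts differ for some members. The Lcn2 window, and the Ngp window with the match at 11, lie inside the GENCODE spans given above. S100a9, which rose after injury in CD45+ cells, and Retnlg, which did not pass the test there, both held the C/EBP form. A match is a description of the letters and does not show that a factor binds there.

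Library totals ranged from 2301202 to 7649841 counts, and from 3383909 to 5081944 in the 6 CD45+ libraries. A count of 0 allows a level of up to 3 counts, which is 0.389 to 1.02 CPM, the count scaled to a common library size, in a single library, for counting error only. Libraries of the same group were alike, with a Pearson's r across genes between 0.958 and 0.989 over 24 pairs; genes are not independent replicates. Of the 10 members 6 passed the filter on low counts and were tested: S100a8, S100a9, Retnlg, Csf3r, Ltf and Lcn2. The other 4 did not pass and are described without a test: Elane with 15 counts in all 24 libraries, Mpo with 34, Camp with 191 and Ngp with 569. A gene was called changed at an adjusted p below 0.05 in edgeR's quasi-likelihood test, adjusted over all 16263 genes tested.

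In CD45+ cells the calprotectin genes and the G-CSF receptor rose after injury, while the resistin-like gene Retnlg was not called. Of the 6 members tested, 3 were called higher (S100a8, S100a9 and Csf3r) and 0 lower, where 16% of all genes tested were called higher and 18.5% lower. Lcn2 had non-overlapping groups without passing, and the groups overlapped for Retnlg and Ltf.

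S100a8 stood at 594, 344 and 1040.4 CPM in the 3 uninjured CD45+ libraries and at 2105, 3575 and 2693 CPM in the 3 injured ones. All injured libraries lay above all uninjured ones. Its mean went from 660 ± 353 to 2791 ± 740 CPM (SD, n = 3), a log2 fold change of 2.08 ± 0.38 (SE) with an adjusted p of 0.000467 in edgeR's quasi-likelihood test.

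S100a9 stood at 570, 296 and 1224 CPM in uninjured and at 1645, 2809 and 1959 CPM in injured CD45+ libraries. Again the groups did not overlap, and the same uninjured library, replicate 2, was lowest. The log2 fold change was 1.62 ± 0.49, with an adjusted p of 0.0185 (edgeR). It lost its call in 5 of 13 alternatives: with DESeq2 (adjusted p = 0.301), with the CD45+ libraries fitted alone (0.093), and without uninjured replicate 1 (0.0706), uninjured replicate 2 (0.0697) or injured replicate 2 (0.0613).

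Csf3r, through which G-CSF acts on neutrophils and their precursors, stood at 346, 134 and 497 CPM in uninjured and at 949, 1212 and 1041 CPM in injured CD45+ libraries. Here too the injured libraries were all higher, and they differed little among themselves (1067 ± 133 CPM against 326 ± 182). The log2 fold change was 1.71 ± 0.45, with an adjusted p of 0.00766 (edgeR), and was not called with DESeq2 (adjusted p = 0.451).

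Retnlg was at 117, 71.2 and 208 CPM in uninjured and at 68.7, 125 and 106.5 CPM in injured CD45+ libraries. The groups overlapped fully. The log2 fold change of -0.40 ± 0.71 had an adjusted p of 0.714 (edgeR) and ranged from -0.69 to 0.14 over 13 alternatives, none of which called it.

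The granule protein Lcn2 was at 29.4, 70.0 and 133 CPM in uninjured and at 168, 391 and 213 CPM in injured CD45+ libraries, and the groups did not overlap. Its log2 fold change of 1.74 ± 0.69 was about that of Csf3r, but its spread was wider and its adjusted p was 0.0666 (edgeR). It passed with limma-voom (adjusted p = 0.00338) and without uninjured replicate 3 (0.0337), and the adjusted p reached 0.216 over the other alternatives. With Lcn2, 4 of the 10 members had injured CD45+ libraries all above the uninjured ones, where 20.1% of all genes tested did.

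**Figure D1:**
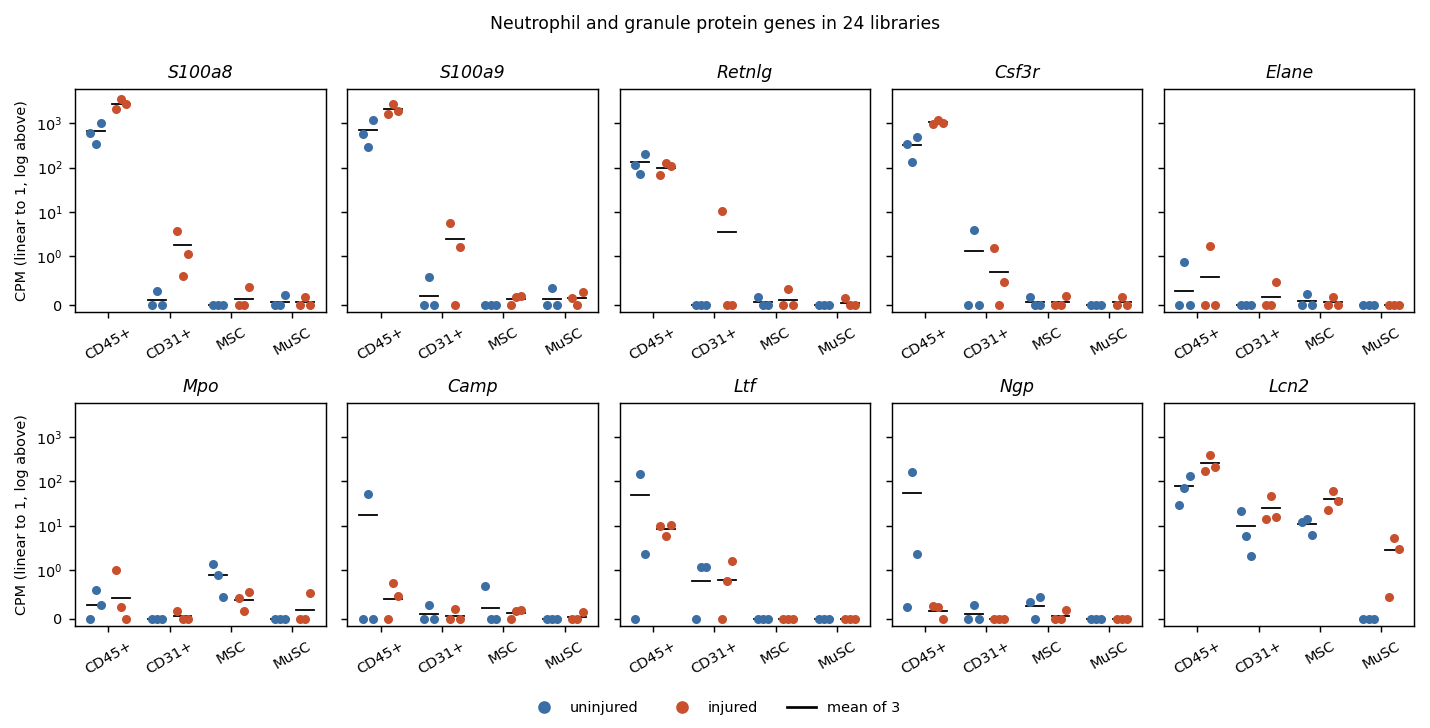
Level of each of the 10 members in every library, in CPM (linear from 0 to 1, logarithmic above), by sorted population, with uninjured libraries in blue, injured libraries in red and bars at the mean of 3. S100a8, S100a9, Csf3r and Lcn2 lie higher in all 3 injured than in all 3 uninjured CD45+ libraries, Camp, Ltf and Ngp are carried by 1 uninjured CD45+ library, and Lcn2 is the member with clear levels in other populations.

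The specific granule genes Camp, Ltf and Ngp were concentrated in a single library. Uninjured CD45+ replicate 2 held 552 of all 569 counts of Ngp (97.0%), 177 of 191 counts of Camp (92.7%) and 512 of 648 counts of Ltf (79.0%). Together that was 1241 of 1408 counts, or 88.1%. In that library Ngp stood at 160 CPM, Ltf at 148 CPM and Camp at 51.2 CPM. In uninjured replicates 1 and 3 Ngp was at 0.237 and 2.29 CPM, Ltf at 0 and 2.29 CPM, and Camp at 0 in both.

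After injury Ltf was at 9.60, 5.88 and 10.3 CPM, Camp at 0, 0.735 and 0.467 CPM and Ngp at 0.253, 0.245 and 0 CPM in CD45+ cells. Ltf therefore had a log2 fold change of -2.54 ± 1.63 (adjusted p = 0.275, edgeR) that turned to 2.94 (adjusted p = 0.114) without uninjured replicate 2. No direction of change can be given for it. If the filter on low counts was left out, Camp (log2 fold change -5.21, adjusted p = 0.0104) and Ngp (-8.08, adjusted p = 0.0446) were called lower by edgeR. Nearly all counts behind both calls came from that 1 library.

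The same library was the lowest of the 3 uninjured CD45+ libraries in S100a8, S100a9, Csf3r and Retnlg. Its azurophil granule genes were near 0, with 3 counts of Elane (0.868 CPM) and 2 of Mpo (0.578 CPM). Its summed level over 16 markers of mature neutrophils was 2031 CPM against 2767 and 3549 CPM in replicates 1 and 3. Its B cell markers (1515 CPM summed over 5 genes, against 696 and 2978) and T and NK cell markers (388 CPM over 7 genes, against 183 and 503) lay between those of the other replicates. Erythroid markers (1.45 to 529 CPM over 6 genes) varied more among the 3 uninjured CD45+ libraries, and replicate 2 was the lowest. Mast cell and basophil markers (14.3 to 868 CPM over 6 genes) varied more as well. Their part in the result was not tested.

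Elane and Mpo, the azurophil granule enzymes, were at or under the limit that a count of 0 allows in nearly every library. Elane had 7 counts in 1 injured CD45+ library (replicate 2, 1.72 CPM) and 3 in 1 uninjured CD45+ library, with 0 in the other CD45+ libraries. Mpo had 8 counts over the 6 CD45+ libraries and 26 over the other 18. Its highest group mean was in uninjured MSC, at 1.34, 0.896 and 0.444 CPM from 14 counts, against 7 counts in injured MSC. At this depth no difference was detectable, with an injured to uninjured ratio of 0.398 in MSC (exact 95% interval 0.136 to 1.05, counting error only).

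The counts of Retnlg relative to S100a8 differed between uninjured and injured CD45+ cells. A ratio of counts within 1 library does not depend on how many of its cells are neutrophils if the genes come from the same cells, which was not tested. Retnlg counts were 0.196, 0.206 and 0.199 of S100a8 counts in the 3 uninjured libraries. They were 0.0327, 0.0350 and 0.0395 of S100a8 counts in the 3 injured ones. The ratio was thus nearly the same within each group (0.201 ± 0.005 and 0.0357 ± 0.0035, SD, n = 3) and 5.62 times higher before injury.

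Other members kept closer to S100a8. S100a9 counts were 0.960, 0.861 and 1.18 of S100a8 counts in uninjured and 0.781, 0.786 and 0.727 in injured libraries, without overlap but with a ratio of means of only 1.31. Csf3r was at 0.484 ± 0.096 of S100a8 before and 0.392 ± 0.056 after injury, and Lcn2 at 0.127 ± 0.077 and 0.0895 ± 0.017, both with overlapping libraries. The summed counts of Camp, Ltf and Ngp over those of S100a8 and S100a9 were 0.000204, 0.560 and 0.00202 in uninjured and 0.00263, 0.00107 and 0.00231 in injured libraries. The ratio of means was 93.5, and it came from uninjured replicate 2, which stood apart from all 5 others. No test was made on these ratios.

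**Figure D2:**
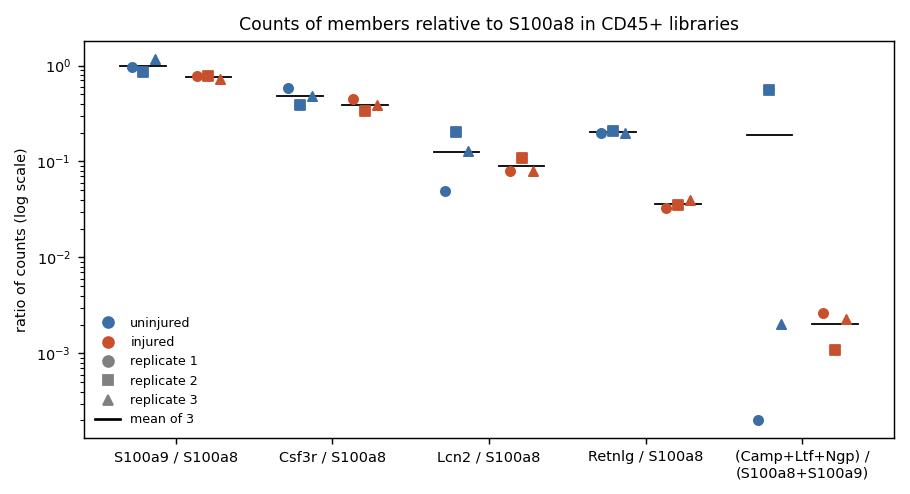
Ratio of counts between members within each of the 6 CD45+ libraries, on a log axis, with uninjured libraries in blue, injured in red, the marker shape giving the replicate and bars at the mean of 3; a library at a ratio of 0 would not be drawn, and none was at 0. Retnlg over S100a8 is near 0.201 in all uninjured and near 0.0357 in all injured libraries, while the specific granule genes in uninjured replicate 2 lie far above the other 5 libraries.

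The 10 members together made up 0.124% to 0.321% of all counts in uninjured and 0.418% to 0.658% in injured CD45+ libraries. S100a8 and S100a9 held 50.2% to 72.9% of the members' counts before and 75.8% to 78.6% after injury. On a scale of mean CPM per kilobase of exon, which allows genes to be compared, the order in uninjured CD45+ cells was S100a9 (1335), S100a8 (950), Retnlg (222), Csf3r (90.3), Ngp (44.2), Lcn2 (29.5), Camp (22.5), Ltf (14.5), Elane (0.294) and Mpo (0.084). In injured CD45+ cells the order was S100a9 (4095), S100a8 (4022), Csf3r (296), Retnlg (169), Lcn2 (98.1), Ltf (2.49), Elane (0.581), Camp (0.529), Ngp (0.136) and Mpo (0.122). The neighbours S100a8 and S100a9 did not differ beyond their spread in either condition. Ngp, Camp and Ltf owe their places before injury to replicate 2.

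CD45+ cells are a mix whose other markers also moved with injury. All 5 B cell markers, all 7 T and NK cell markers and all 5 dendritic cell markers were called lower. Summed B cell markers went from 696 to 2978 CPM in uninjured libraries to 8.82 to 51.1 CPM in injured ones, and T and NK cell markers from 183 to 503 CPM to 9.31 to 15.2 CPM. Dendritic cell markers (summed) went from 563 to 1193 CPM to 60.9 to 230 CPM. Of 8 monocyte and macrophage markers 3 were called higher (summed 3641 to 5163 CPM, then 5807 to 6190 CPM). Over all genes tested, 16% were called higher and 18.5% lower. Of 8 general leukocyte markers 0 were called, but their sum went from 11700 to 12190 CPM to 15640 to 17590 CPM, without overlap. Ptprc, which encodes CD45, went the other way, at 702 to 872 CPM before and 429 to 548 CPM after injury. The part of all these markers in the members' changes was not tested. In such bulk samples, more neutrophils among the sorted cells and more of an mRNA per neutrophil cannot be told apart.

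The other genes of the pathway were taken from 7 lists. In injured CD45+ cells 16% of all genes tested were called higher and 18.5% lower, the shares to set beside the list counts. Of 16 mature neutrophil genes 13 were called higher and 0 lower in injured CD45+ cells, with a median log2 fold change of 2.01 beside -0.12 over all genes tested. Clec4d, a C-type lectin receptor of myeloid cells, was at 47.0 ± 29.7 CPM before and 626 ± 76.6 CPM after injury, a rise of 3.74 ± 0.40 on the log2 scale (adjusted p = 5.34e-06, edgeR). Cxcr2, the receptor for neutrophil-attracting CXC chemokines, rose from 178 ± 116 to 1046 ± 230 CPM (2.56 ± 0.41, adjusted p = 0.000242, edgeR). The integrin subunit Itgam, also called CD11b and shared with monocytes, rose by 1.64 ± 0.24, and the formyl peptide receptor Fpr1 by 2.99 ± 0.48 on the log2 scale.

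The 3 mature neutrophil genes that did not pass included Ly6g, the usual surface marker of mouse neutrophils. It was at 9.78 ± 7.14 CPM before and 5.99 ± 3.32 CPM after injury (log2 fold change -0.70, adjusted p = 0.526, edgeR). The integrin subunit Itgb2 did not pass either (log2 fold change 0.89, adjusted p = 0.117, edgeR). These genes were chosen for mention after their values were seen.

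Among other genes of the specific and gelatinase granules, some were called higher in CD45+ cells and the rest were not called. Of 11 such genes 10 were tested, and 6 were called higher and 0 lower, with a median log2 fold change of 1.45. The 4 not called were Cybb (log2 fold change -0.96), Hp (1.80), Pglyrp1 (0.47) and Itgb2l (1.35). These 4 are named to complete the list, after their values were seen. The collagenase Mmp8 rose from 64.5 ± 39.0 to 189 ± 29.6 CPM (1.55 ± 0.35) and the gelatinase Mmp9 from 334 ± 115 to 1515 ± 162 CPM (2.18 ± 0.44). Cd177, a neutrophil surface glycoprotein, rose by 1.35 ± 0.28 and Cyba, a subunit of the NADPH oxidase, by 0.76 ± 0.16 on the log2 scale. Mmp8, Mmp9 and Cd177 stand on the mature neutrophil list too.

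Of 7 azurophil granule genes 4 were tested. The granule proteoglycan core Srgn rose from 583 ± 137 to 2354 ± 485 CPM (2.01 ± 0.23), and proteinase 3, Prtn3, from 1.35 ± 1.44 to 16.5 ± 2.63 CPM (3.59 ± 0.77, adjusted p = 0.00099, edgeR). Serpinb1a, an inhibitor of neutrophil serine proteases, fell by 2.03 on the log2 scale, from 106 ± 12.1 to 25.9 ± 9.65 CPM. Ctsc, the protease that activates elastase and its relatives, was not called (0.55, adjusted p = 0.411, edgeR). Ctsg, Ms4a3 and Bpi were not tested and had 1, 0 and 2 counts before and 12, 3 and 0 counts after injury. Prtn3 lies next to Elane in the same protease gene cluster, and Elane itself had 3 counts before and 7 after injury.

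Signalling from G-CSF is read through Csf3r, JAK kinases, Stat3 and its feedback inhibitor Socs3. Of 7 genes on that list 5 were tested and 4 were called higher, with 0 lower. Socs3 rose from 134 ± 24.4 to 490 ± 67.1 CPM (1.87 ± 0.24, adjusted p = 5.39e-06, edgeR). Stat3 rose by 0.85 ± 0.14, Jak2 by 0.84 ± 0.30 and the interleukin 17 receptor subunit Il17ra by 0.77 ± 0.23 on the log2 scale. G-CSF itself, Csf3, had 0 counts in uninjured and 1 in injured CD45+ cells, and 39 counts (2.28 ± 1.38 CPM) in injured CD31+ cells.

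Among 8 factors of granulocyte development 7 were tested and 2, Stat3 and Cebpb, were called higher, against 16% of all genes tested. Cebpb, known for emergency granulopoiesis, went from 10.4 ± 5.97 to 44.0 ± 31.7 CPM (2.09 ± 0.74, adjusted p = 0.0339, edgeR), a call that held in 6 of 13 alternatives. Cebpe, which drives specific granule genes, was at 3.57 ± 0.63 and 5.32 ± 2.52 CPM (0.57, adjusted p = 0.607, edgeR), and Runx1 was not called (-0.30). Gfi1 was not tested, with 3 and 12 counts.

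Among receptors through which the members' proteins are known to act, some were called higher and some lower. Of 9 genes 8 were tested, 5 were called higher and 2 lower, against 16% and 18.5% of all genes tested. Tlr4, a receptor of calprotectin, rose by 1.51 ± 0.30, Fpr2, a receptor of the Camp peptide, by 2.36 ± 0.42, and Lrp1, a receptor of lactoferrin, by 1.00 ± 0.21 on the log2 scale. Slc22a17, a receptor of lipocalin 2, fell by 3.52, from 4.95 ± 3.34 to 0.415 ± 0.529 CPM.

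Relatives of S100a8 and Retnlg went both ways. Of 10 other S100 and resistin genes 9 were tested, 4 were called higher and 2 lower, against 16% and 18.5% of all genes tested. S100a11 rose by 1.41 ± 0.14, S100a6 by 1.06 ± 0.12 and S100a10 by 0.63 ± 0.12 on the log2 scale. Retnla, a resistin-like gene of alternatively activated macrophages, fell by 6.54, from 3700.3 ± 1304 to 39.6 ± 42.9 CPM (adjusted p = 4.26e-05, edgeR).

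**Figure D3:**
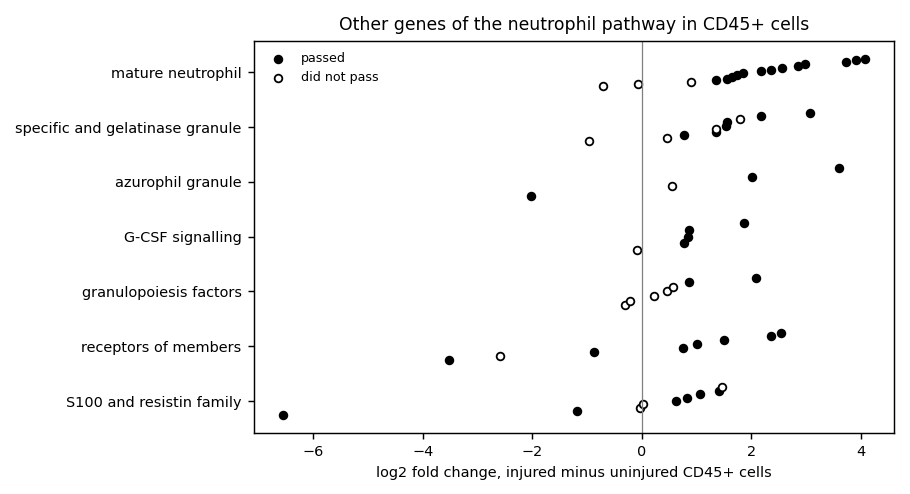
Log2 fold change of injured against uninjured CD45+ cells for each tested gene of the 7 pathway lists, filled where the adjusted p was below 0.05 and open where it was not. The mature neutrophil genes lie to the right with 13 of 16 passing, while Retnla and Slc22a17 are the lowest points of their lists.

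Outside CD45+ cells the members were at trace level, except for Lcn2. Of all counts in the 24 libraries, CD45+ libraries held 99.9% for S100a8, 99.8% for S100a9 and Csf3r, 98.9% for Ngp, 97.4% for Retnlg, 96.6% for Ltf and 95.3% for Camp. Their part was 72.7% for Lcn2, 66.7% for Elane and 23.5% for Mpo, the last 2 from 15 and 34 counts in all. The members tested, apart from Lcn2, passed the filter on low counts through their CD45+ libraries, so the direction against the other populations was largely set by the filter and the counts called are a description only. In uninjured muscle 6 of 6 were called higher in CD45+ cells than in CD31+ cells (25.1% of all genes tested were), MSC (28.4%) and MuSC (29%). In injured muscle 5 of 6, all but Ltf, were called higher than in CD31+ cells (22.2%), MSC (27.9%) and MuSC (28.1%). The calls for uninjured Ltf were unstable. Against CD31+ cells the call (log2 difference 6.09, adjusted p = 0.0422, edgeR) was lost in 8 of 12 alternatives, with adjusted p from 0.0097 to 0.78, the highest without CD45+ replicate 2 (log2 difference 0.58). It was lost without any 1 of the uninjured CD31+ libraries too (adjusted p = 0.126, 0.103 and 0.105 without replicates 1 to 3). Against MuSC the Ltf call was lost in 6 of 12 alternatives, among them without CD45+ replicate 2 (0.0571) and without MuSC replicate 1 (0.0518) or 3 (0.0521), and against MSC in 1 of 12, without the filter (0.0539).

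In CD31+ cells none of the 6 tested members was called after injury, where 14.1% of all genes tested were called higher and 9.3% lower. S100a8 had 0, 0.282 and 0 CPM in uninjured and 3.69, 0.582 and 1.11 CPM in injured CD31+ libraries, which did not overlap. It was the only member of which that held there, where 19.6% of genes tested had injured libraries all higher. The injured to uninjured ratio was 22.0 from 34 against 1 counts (exact 95% interval 3.70 to 896, counting error only), and the log2 fold change of 4.10 ± 1.55 had an adjusted p of 0.0689 (edgeR). DESeq2 called it (adjusted p = 0.0128).

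S100a9 was also highest in injured replicate 1, at 5.54, 0 and 1.59 CPM after injury and 0, 0.565 and 0 CPM before (adjusted p = 0.143, edgeR). Csf3r was at 1.54, 0 and 0.476 CPM after injury, and at 0, 3.95 and 0 CPM before. Retnlg had 68 counts, all in injured replicate 1 (10.5 CPM), and 0 in the 5 other CD31+ libraries. Set against 3 counts, taken as the limit over the uninjured group, that was at least 14.7-fold higher, on the strength of a single library; the exact 95% interval of the ratio starts lower, at 11.6. Its adjusted p was 0.0905 (edgeR) and was 0.0435 without injured replicate 2 and 0.0286 without injured replicate 3.

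The 3 highest injured CD31+ levels of S100a8, S100a9 and Retnlg thus fell in replicate 1. There all 8 of 8 general leukocyte markers were higher than in replicates 2 and 3, with a summed level of 179 CPM against 27.2 and 24.3 CPM (21.8 to 37.0 CPM in uninjured CD31+ libraries). Of these 8 markers 4 were called higher after injury in CD31+ cells: Cd53, Fcer1g, Laptm5 and Rac2. Tyrobp, an adaptor of myeloid receptors, was at 24.2, 0.582 and 0.159 CPM in replicates 1 to 3, and Ptprc, which encodes CD45, at 10.3, 2.72 and 3.17 CPM. Neither Tyrobp (adjusted p = 0.0959, edgeR) nor Ptprc (0.179) was called. The 16 mature neutrophil genes summed to 78.6 CPM in replicate 1 against 21.5 and 11.3 CPM, while Ly6g was at 0 in every CD31+ library. Retnlg counts in replicate 1 were 2.83 of S100a8 counts, from 68 and 24 counts, where the ratio was 0.0357 ± 0.0035 in injured CD45+ cells. Without that library the log2 fold change of S100a8 was 3.01 (adjusted p = 0.286) and Retnlg had no counts. The part of leukocytes in these levels was not tested.

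Lcn2 was measured in 15 of the 18 libraries outside CD45+ cells, with 1502 counts. In MSC it was at 12.2, 14.3 and 6.00 CPM before and at 22.1, 59.2 and 36.8 CPM after injury, without overlap. It was the only member of which that held in MSC, where 23% of genes tested had injured libraries all higher. The log2 fold change was 1.85 ± 0.77 with an adjusted p of 0.0684 (edgeR). In MSC 0 of 6 tested members were called, against 18.3% of all genes called higher and 23.6% lower; with the 6 MSC libraries fitted alone, Lcn2 passed (log2 fold change 1.97, adjusted p = 0.00591). The 8 leukocyte markers summed to 1.33 to 3.14 CPM in uninjured and 0.539 to 1.99 CPM in injured MSC, and 0 were called. Among them Tyrobp had 0 counts in uninjured and 1 in injured MSC, and Ptprc 9 and 7 counts. The integrin subunit Itgb2, from the mature neutrophil list, was called higher (2.53 ± 0.94, adjusted p = 0.0387, edgeR). The part of leukocytes in the Lcn2 result was not tested.

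In MuSC Lcn2 had 0 counts in all 3 uninjured libraries and was at 0.446, 5.14 and 2.99 CPM in the injured ones, 58 counts in all. Set against 3 counts, taken as the limit over the uninjured group, that is at least 12.4-fold higher; the exact 95% interval of the ratio starts lower, at 9.74. Lcn2 was again the only member without overlap, where 25.5% of genes tested had injured libraries all higher. No member was called in MuSC (0 of 6, against 21.4% of all genes higher and 17.5% lower), and the adjusted p of Lcn2 was 0.101 in edgeR and 0.000208 in DESeq2.

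Markers of other cell types were measured in the same MuSC libraries. Of 6 stromal markers 2 were called higher after injury and 1 lower. Pdgfra, a defining gene of MSC, had a log2 fold change of 7.13 ± 1.58 (adjusted p = 0.00164, edgeR) and Smoc2 one of 8.51 ± 1.70 (adjusted p = 0.000696). Dpt was the one called lower, at -2.11 ± 0.33 (adjusted p = 6.83e-05, edgeR). Dcn (2.65), Col1a1 (0.62) and Col3a1 (-1.63) were not called. The summed stromal level was 1496 to 1720 CPM in uninjured MuSC libraries and 449, 1016 and 860 CPM in injured replicates 1 to 3. Of 8 leukocyte markers 0 were called, with summed levels of 1.94 to 2.55 CPM before and 1.77 to 3.87 CPM after injury. Tyrobp had 0 counts in every MuSC library, while Laptm5 had 2 counts before and 40 after injury (3.57, 0.963 and 1.30 CPM in injured replicates 1 to 3). Their part in the result was not tested.

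In CD31+ cells Lcn2 was at 21.0, 5.93 and 2.06 CPM before and at 14.0, 47.5 and 15.4 CPM after injury, and the groups overlapped. The log2 fold change was 1.31 ± 0.80 (adjusted p = 0.274, edgeR). Replicate 2 was highest after injury, and the summed leukocyte level was 179, 27.2 and 24.3 CPM in injured replicates 1 to 3. Its part in the result was not tested. The order of mean Lcn2 levels was thus injured CD45+ (257 ± 118 CPM), uninjured CD45+ (77.4 ± 52.1), injured MSC (39.4 ± 18.7), injured CD31+ (25.6 ± 19.0), uninjured MSC (10.9 ± 4.34), uninjured CD31+ (9.68 ± 10.03), injured MuSC (2.86 ± 2.35) and uninjured MuSC. Neighbouring groups in that order overlapped, except for the injured and uninjured CD45+ libraries and the injured and uninjured MuSC libraries.

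The response to injury in CD45+ cells was also tested against that in each other population. None of the 6 tested members passed, where 17.1% of all genes did against CD31+ cells, 25.1% against MSC and 24.4% against MuSC, in either direction. For Lcn2 the difference in log2 fold change was 0.43 ± 1.06 against CD31+ cells (adjusted p = 0.844, edgeR), -0.11 ± 1.01 against MSC (adjusted p = 1) and -5.10 ± 3.91 against MuSC (adjusted p = 0.4). With errors of this size, a p that misses the threshold does not show that the responses were alike. For the other members the level in MSC and MuSC was too low for the comparison to say much.

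**Figure D4:**
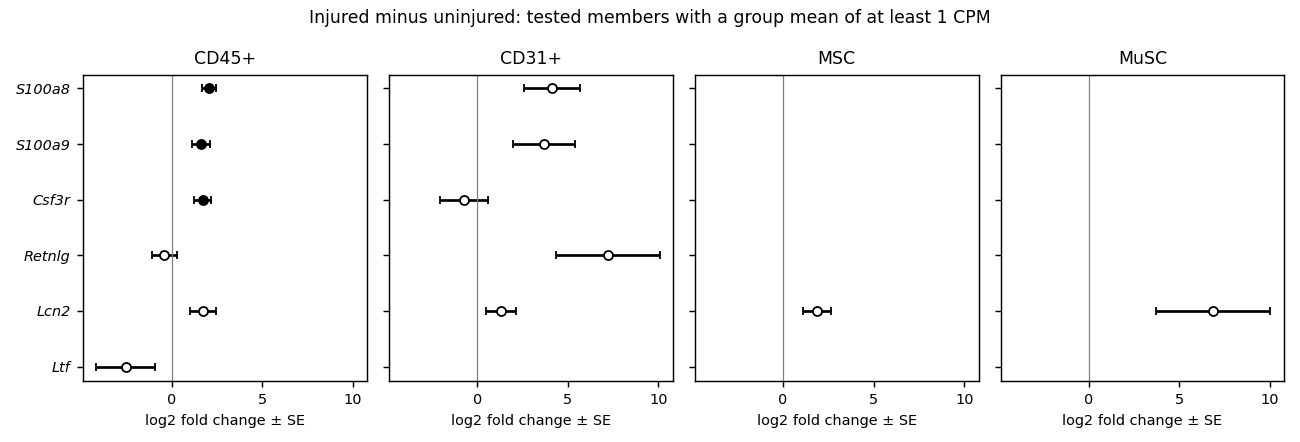
Log2 fold change of injured against uninjured cells with its SE, in each population, for tested members with a mean of at least 1 CPM in at least 1 of the 2 groups, filled where the adjusted p was below 0.05. Filled points appear only for S100a8, S100a9 and Csf3r in CD45+ cells, and Lcn2 lies to the right of 0 in all 4 populations.

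Elsewhere in the pathway lists, calls were counted as higher and lower in CD31+ cells, MSC and MuSC, in that order. Over all genes tested the shares were 14.1% and 9.3%, 18.3% and 23.6%, and 21.4% and 17.5%. The counts were 2 and 0, 1 and 0, and 0 and 0 of 16 mature neutrophil genes. For the G-CSF list the counts were 3 and 0, 3 and 1, and 1 and 2 of 5. Socs3 rose in each, by 2.18 ± 0.26 in CD31+ cells, 1.82 ± 0.25 in MSC and 0.84 ± 0.24 in MuSC on the log2 scale. Stat3 rose by 0.51 ± 0.14 in CD31+ cells and 0.61 ± 0.14 in MSC, while Il17ra rose by 1.10 ± 0.24 in MSC and fell by 1.80 in MuSC. Jak1 was called lower in MSC (-0.38 ± 0.14). For the receptors the counts were 1 and 1, 0 and 4, and 2 and 3 of 8. Tlr4, Lrp1 and Slc22a17 fell by 1.42, 1.10 and 1.37 in MSC. In MuSC Lrp1 and Slc22a17 fell by 1.00 and 1.32, and in CD31+ cells the scavenger receptor Cd36 fell by 0.94. Among granule genes, Pglyrp1, a peptidoglycan recognition protein, rose by 1.71 ± 0.41 and Cyba by 0.64 ± 0.17 in CD31+ cells, Ctsc rose by 2.54 ± 0.54 and Cyba fell by 0.49 in MSC.

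Relatives and regulators of the members also moved outside CD45+ cells. Runx1, a transcription factor of blood development, rose by 3.21 ± 0.27 in MSC and 1.77 ± 0.22 in MuSC on the log2 scale. S100a6 rose by 2.16 ± 0.12 in CD31+ cells and 1.74 ± 0.12 in MuSC, and by 0.29 ± 0.12 in MSC, a call lost with RLE scaling. S100a11 rose by 1.26 ± 0.14 in CD31+ cells and 1.08 ± 0.15 in MuSC. S100a10 rose by 0.36 ± 0.13 in CD31+ cells and by 0.65 ± 0.13 in MuSC. It fell by 0.83 in MSC, where S100a13 and S100a1 fell by 1.11 and 1.16. S100a13 was also called lower in MuSC (-0.55 ± 0.16). The members S100a8 and S100a9 themselves had at most 3 counts in any of these MSC and MuSC groups.

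Genes of most similar pattern were sought by Pearson's r of log2(CPM + 1) over the 24 libraries, which share their populations and so rise and fall with them. For S100a8, among 10389 genes with a group mean of at least 20 CPM, they were 4833407H14Rik (r = 0.998), the complement receptor gene C5ar1 (0.998) and Trem3 (0.997). For Lcn2 they were Nuak2 (0.927), Cdc42 (0.926) and Eloa (0.923). For Ngp they were Iglv3 (0.751), Gm42870 (0.747) and Iglv1 (0.727), a likeness set mostly by 1 library. For Mpo, among 13901 genes with at least 5 CPM, they were Slc6a12 (0.764), Bfsp1 (0.756) and Dkk3 (0.753), at levels of Mpo near the counting limit. These values are descriptions without a test.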

How the data were processed

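The table the authors deposited holds unnormalized counts, as whole numbers, for 52997 gene symbols in 24 libraries. Per the labels' protocols, RNA of about 1000 cells was copied from an oligo(dT) primer, amplified by PCR, tagged with Nextera XT and read as pairs of 25 bases, without molecular identifiers or strand. PCR copies were therefore counted, and intervals cover counting error only. The alignment program was STAR 2.5.4, the counting program featureCounts and the genome mm10, per the submitters' processing notes. Not given in the sources used here are the annotation and how reads matching several genes were treated.

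Counts were analysed in edgeR 4.0.16 (R 4.3.3): low counts were removed by filterByExpr (minimum count 10), leaving 16263 genes, library sizes were scaled by TMM, and 1 robust quasi-likelihood model with a mean for each of 8 groups covered all libraries (residual degrees of freedom 16, common biological coefficient of variation 0.224). P-values of 13 contrasts were two-sided and adjusted by the Benjamini-Hochberg method over all genes within each contrast. SE is the log2 fold change over the square root of F and is approximate. CPM are on TMM-scaled sizes. Symbols were matched to GENCODE vM21 (49365 matched) for positions and exon length, and to RefSeq promoters (GRCm38.p6).

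The members and lists were chosen with earlier results of these data known. Genes named beside the members were up to 4 of each list by smallest adjusted p in CD45+ cells. List genes called elsewhere whose higher group had at least 20 CPM were named too, as were the 3 genes most like S100a8, Ngp, Lcn2 and Mpo. Single cell type markers, and Itgb2 in MSC, were named outside these rules, after their values were seen. Other names are stated as chosen later or are single counts of untested list genes. Alternatives were another scaling (RLE, upper quartile), no filter, DESeq2 1.42.0, limma-voom (limma 3.58.1), a replicate block, fits of 1 population alone and each library left out. The script was tested on simulated data for the CD45+ injury contrast alone, with the same spread set for every gene. That checks the code and not the calls of the members. The values of 1 mature neutrophil gene are not reported here.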

Additional observations from a re-analysis of the deposited data

How the results depend on the processing

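Tests of single members gave 78 results and 1052 values under alternatives, of which 1013 kept their direction and their side of the threshold. S100a8 in CD45+ cells passed in all 13 alternatives (log2 fold change 1.77 to 2.63), and Csf3r in all but DESeq2 (1.34 to 2.20). The count of members called in CD45+ cells after injury was 3 and became 5 without the filter on low counts, where Camp and Ngp were added, and 1 with DESeq2. In CD31+ cells it was 0 and became 1 with DESeq2, and 0 to 1 when a library was left out, being 1 without injured replicate 2 or injured replicate 3. In MSC it was 0 and became 1 with the 6 MSC libraries fitted alone. In MuSC it was 0 and became 1 with DESeq2, while the 6 MuSC libraries fitted alone left no member to test. The count of members whose response differed between CD45+ and CD31+ cells was 0 and 0 to 1 when a library was left out, and between CD45+ cells and MuSC 0 and 1 with DESeq2. With RLE scaling the S100 and resistin genes called higher in MSC went from 1 to 0. In injured CD45+ cells the mature neutrophil genes called higher ranged from 10 (DESeq2) to 14 (limma-voom), and the specific and gelatinase granule genes from 4 to 8. The cause of these changes was not tested. Libraries share replicate numbers across groups. Between populations of the same condition, deviations of same-numbered libraries had a median r of 0.02 (-0.02 to 0.18, 5 of 36 pairs over 0.1) and those of different numbers -0.01 (0 of 72 over 0.1). The mean r was highest with a library's own number for 22 of 24 libraries, a hint from the data, but not every pair was over 0.1 and the labels state no pairing, so the block was not made the main fit. Between uninjured and injured libraries of 1 population, 0 of 12 same-numbered pairs were over 0.1. With a replicate block 3 members were still called in CD45+ cells, 5 in place of 6 in uninjured CD45+ against CD31+ cells and against MuSC, and 6 in place of 5 in injured CD45+ cells against MSC and against MuSC. Depth limits Elane, Mpo and all members but Lcn2 outside CD45+ cells, where levels rest on a few counts.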
